A study of Mus musculus with 69 samples.

Results

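Lymphocytes in the mouse lung were followed through 36 genes that mark them, of the 17628 genes tested on whole-genome arrays: 18 genes of T cells, 9 of B cells and 9 of natural killer (NK) and cytotoxic cells. The genes were listed by name as markers of these cells, with earlier results of these data known. Each probe was tied to a gene through the transcript accession it carries, and the value of a gene in an animal was the median over its probes of the authors' log2 ratio of lung RNA over a common reference RNA. A probe was matched for 35 of the 36 genes (45 probes), and Cd8b1, a chain of the CD8 co-receptor, is named here without a value because no probe was matched to it.

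The lungs came from 69 female C57BL/6 mice, 5 to 7 weeks old on arrival and kept for a further 1 to 3 weeks before exposure. Each mouse was given, once and through the trachea, 18, 54 or 162 µg of titanium dioxide nanoparticles or vehicle alone. The particles were NRCWE-001, which is unmodified and carries no charge, or NRCWE-002, which is positively charged. The sample titles name the vehicle H2O and the series text names serum in water; vehicle mice were instilled like the exposed mice. Lungs were taken on day 1 or day 28, with 5 mice in each of the 12 exposed groups, 5 vehicle mice on day 1 and 4 vehicle mice on day 28. The labels name no engineered allele, and each array held the RNA of 1 mouse (Cy5) against Universal Mouse Reference RNA (Cy3). RNA was taken from a small piece of whole frozen lung, so fewer cells of a type and less RNA per cell cannot be told apart in any value given here.

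T cells recognise peptides through the T cell receptor, whose signal passes to the CD3 chains and on to kinases such as Lck and Zap70. B cells sense antigen through membrane immunoglobulin coupled to the proteins of Cd79a and Cd79b, while NK cells and cytotoxic T cells kill target cells with perforin and granzymes. In the lung these cells sit in the tissue, in the vessels and in lymphoid clusters around the airways, so a small piece of tissue can hold more or fewer of them from one animal to the next.

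The lung genes Sftpc, Sftpb, Scgb1a1 and Pecam1 were above the reference on all 69 arrays, with log2 ratios of at least 6.66, 3.22, 5.52 and 1.86. Of the 35 measured lymphocyte genes, 26 were well above background on all 69 arrays and 5 on fewer than 35 arrays. Those 5 were Foxp3, the factor of regulatory T cells (6 arrays), Ctla4, an inhibitory T cell receptor (9), Pax5, the factor of B cell identity (21), Klrk1, an activating NK receptor (26), and Cd28, a co-stimulatory receptor of T cells (29). Arrays lay on 18 slides scanned on 12 days, and most slides held animals of several groups, so slides were compared as batches. Slides took up 30.9% of the residual degrees of freedom, but the share of the sum of squares within groups that lay between slides was 39.1% for the mean of the T cell genes, 47.5% for the B cell genes and 70.0% for the NK genes. The median correlation with the other arrays was below 0.9 for 4 arrays, replicate 2 of each NRCWE-002 group on day 28, all on 1 slide, and replicate 2 of 18 µg NRCWE-001 on day 1. Calls against vehicle and between particles that changed without those 4 arrays are given with their values.

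The first question was whether lymphocyte genes moved with dose. The 3 genes used to define the lineages were not called at any dose. Cd3e, a chain of the T cell receptor complex, had log2 ratios of -0.23, -0.43, -0.64, -0.71 and -0.44 in the vehicle mice of day 1 and of -0.54, -0.29, -0.53 and -0.46 in those of day 28. At 162 µg NRCWE-001 the values were -0.42, -0.77, -0.57, -0.56 and -0.65 on day 1 and -0.29, -0.58, -0.68, -0.49 and -0.35 on day 28. At 162 µg NRCWE-002 they were -0.70, -0.58, -0.53, -0.40 and -0.60 on day 1 and -0.51, -0.15, -0.53, -0.51 and -0.51 on day 28, and in each case the exposed mice overlapped their vehicle mice. Over all 12 comparisons with the same-day vehicle, the Cd3e difference lay between -0.13 and 0.02 on the log2 scale. At 162 µg the 95% intervals of the differences lay within -0.29 and 0.22 for Cd3e.

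Cd79a, a signalling chain of the B cell receptor, had values of 0.20, 0.42, 0.39, 0.69 and 0.11 in vehicle mice on day 1 and of 0.85, 0.40, 0.24 and 0.49 on day 28. In the 4 groups given 162 µg its lowest and highest values were 0.19 and 0.46 (NRCWE-001, day 1), 0.35 and 0.60 (NRCWE-002, day 1), 0.18 and 0.73 (NRCWE-001, day 28) and 0.09 and 0.72 (NRCWE-002, day 28). All 4 groups overlapped vehicle, and over the 12 comparisons the Cd79a difference lay between -0.24 and 0.11. Ncr1, which encodes the NK receptor NKp46, had vehicle values of 0.25, 0.51, 0.59, 0.27 and 0.43 on day 1 and of 0.67, 0.23, 0.52 and 0.50 on day 28. It read 0.00, 0.22, 0.13, 0.26 and 0.24 at 54 µg NRCWE-001 on day 28, where 3 of 5 mice were below every vehicle mouse and the difference was -0.31 (unadjusted p = 0.0017, limma, adjusted p = 1.00). No member among Cd3e, Cd79a and Ncr1 passed an adjusted p of 0.05 in limma in any comparison with vehicle.

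**Figure D1:**
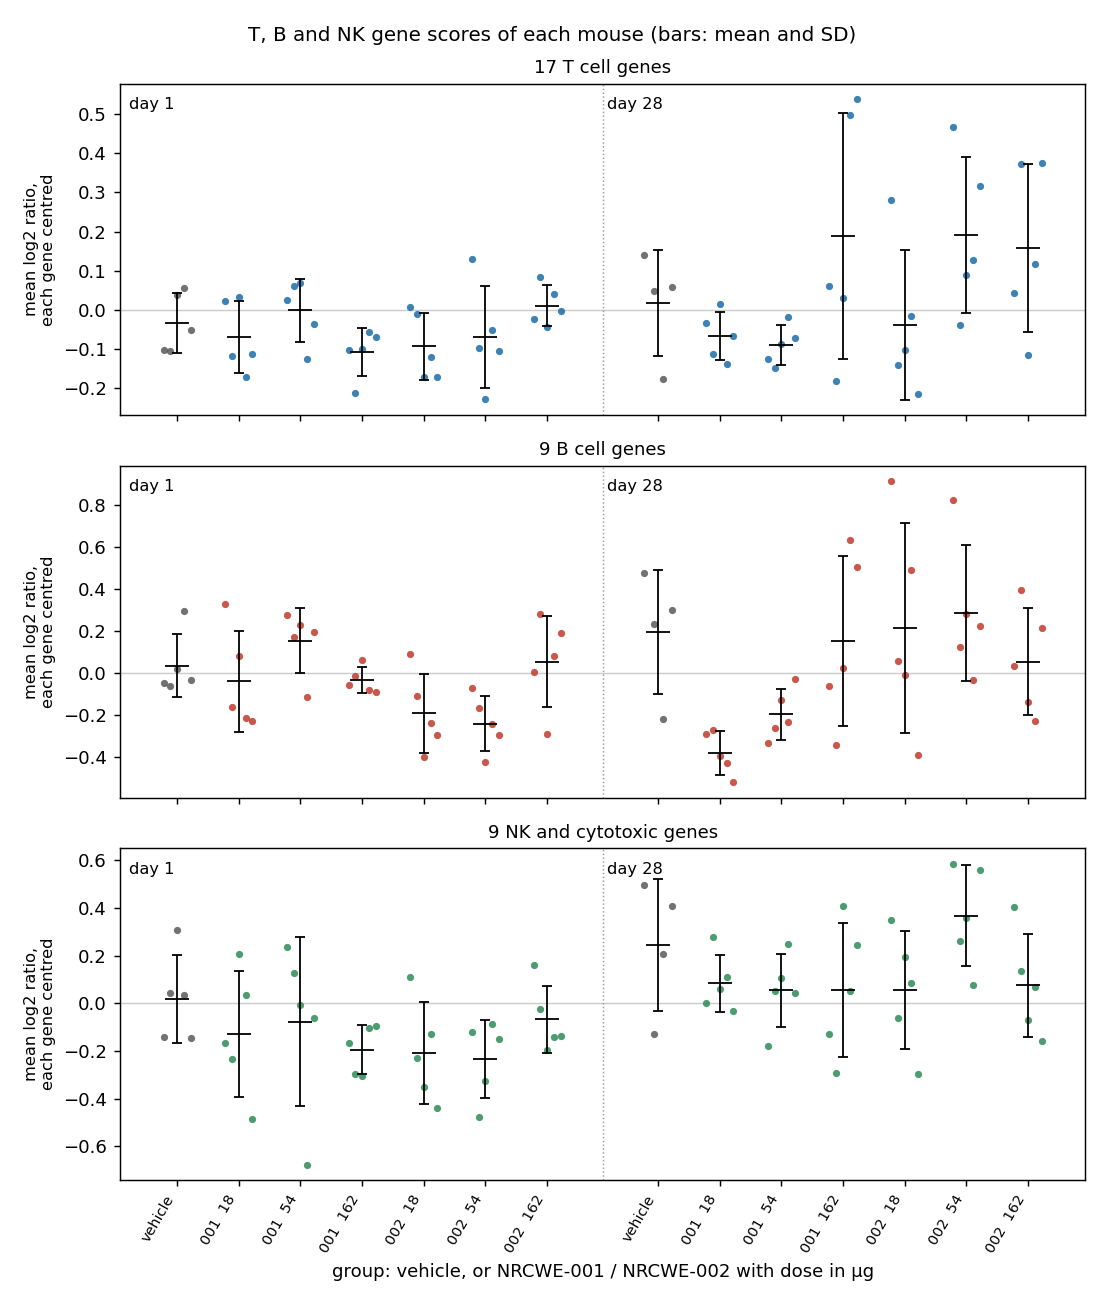
Mean of the T, B and NK genes in each mouse, after each gene's own mean over all 69 arrays was taken off (y axis, log2 ratio), by group (x axis), with day 1 on the left and day 28 on the right. Points are mice and bars are the group mean and SD. The B cell mean of 18 µg NRCWE-001 on day 28, -0.38 ± 0.10, lies below all 4 vehicle mice of that day.

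Over the limma contrasts of each dose with vehicle, 2 of the 35 genes passed an adjusted p of 0.05 in any group. One was Gata3 at 162 µg NRCWE-001 on day 1 (1 of 35, against 0.624% of all genes called in that contrast), and the other was Gpr171 at 162 µg NRCWE-001 on day 28 (1 of 35, against 0.0511%). No lymphocyte gene was called in the remaining 10 contrasts. On day 1 the share of all genes called was 0% at 18 µg and 0% at 54 µg NRCWE-001, and 0% at 18 µg, 0.113% at 54 µg and 0.59% at 162 µg NRCWE-002. On day 28 it was 0.193% at 18 µg and 0.00567% at 54 µg NRCWE-001, and 0% at 18 µg, 0% at 54 µg and 0.00567% at 162 µg NRCWE-002. All contrasts of 1 day share the same vehicle arrays, so they are not independent of each other.

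Before adjustment, the number of the 35 genes with p under 0.05 on day 1 was 1 at 18 µg, 1 at 54 µg and 4 at 162 µg NRCWE-001, where 5.28%, 4.99% and 7.32% of all genes did so. For NRCWE-002 on day 1 it was 2, 7 and 3 genes, against 4.16%, 6.75% and 9.36% of all genes. On day 28 it was 10, 6 and 4 genes for NRCWE-001, against 6.62%, 2.58% and 7.34%, and 2, 2 and 4 genes for NRCWE-002, against 6.5%, 4.98% and 7.27%. Counts well over the share of all genes therefore lay at 54 µg NRCWE-002 on day 1 and at 18 and 54 µg NRCWE-001 on day 28, and B cell genes made up 3 of the 7, 8 of the 10 and 3 of the 6 genes.

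**Figure D2:**
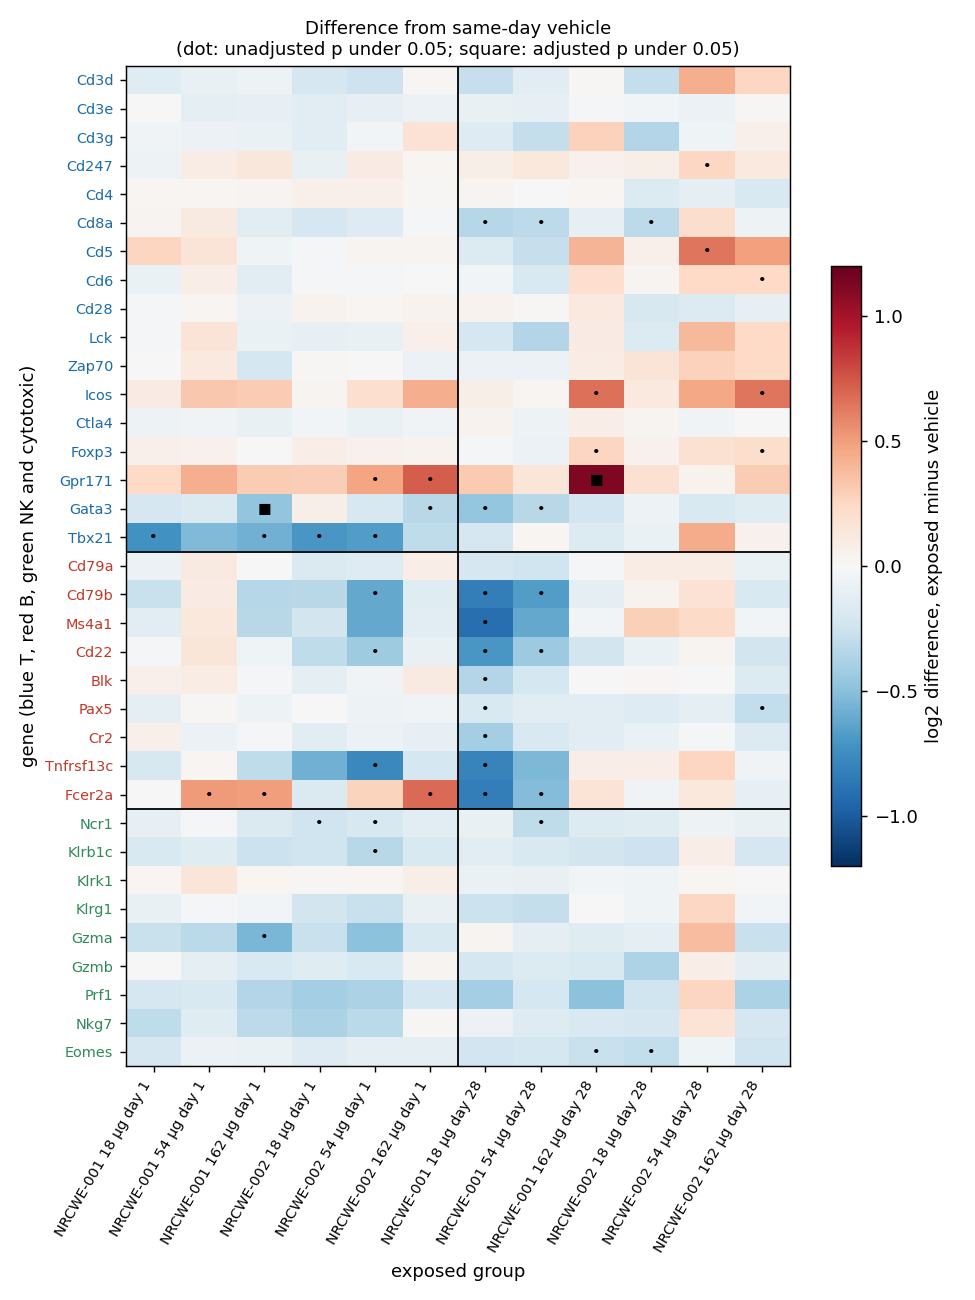
Log2 difference of each of the 35 genes (rows) between each exposed group and the same-day vehicle mice (columns), on a scale from -1.2 to 1.2. Dots mark an unadjusted p under 0.05 and squares an adjusted p under 0.05 in limma, and squares stand only at Gata3 (162 µg NRCWE-001, day 1) and Gpr171 (162 µg NRCWE-001, day 28).

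Among the T cell genes, Gata3, the transcription factor of type 2 helper T cells and innate lymphoid cells, was the gene that fell on day 1. Its log2 ratio was -0.51, -0.31, -0.49, -0.28 and -0.54 in vehicle mice on day 1 and -1.12, -0.65, -0.96, -1.16 and -0.58 at 162 µg NRCWE-001. All 5 exposed mice were below every vehicle mouse. The means were -0.89 ± 0.27 and -0.42 ± 0.12 (SD, n = 5 each), a difference of -0.47 (SE 0.12, limma adjusted p = 0.0484). With slide as a block the difference was -0.41 (limma adjusted p = 0.0213), and within each of the 3 slides that held both groups it was between -0.61 and -0.33. The call was lost with ratios remade from the scanner signals by normexp and loess (-0.41, limma adjusted p = 0.0944) or by median centring (-0.29, 0.995), with the scanner software's processed signals (-0.55, 0.0587) and without the filter on dim probes (-0.47, 0.0509). Dropping the 10 arrays of these groups in turn cost the call 8 times, with limma adjusted p between 0.00706 and 0.338. It held only without replicate 2 or replicate 5 of 162 µg NRCWE-001, and was lost without replicates 1, 3 or 4 of that group or any of the 5 vehicle mice.

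Gata3 read -0.76, -0.97, -0.82, -0.52 and -0.74 at 162 µg NRCWE-002 on day 1, where 4 of 5 mice were below every vehicle mouse (difference -0.34, limma adjusted p = 0.240). On day 28 it read -0.94, -1.08, -1.04, -0.87 and -0.87 at 18 µg NRCWE-001 against -0.66, -0.18, -0.68 and -0.45 in vehicle mice. All 5 exposed mice were again below vehicle, with a difference of -0.47 (limma adjusted p = 0.143). With slide as a fixed block the limma adjusted p was 0.0503, and with slide as a random block the difference was -0.46 and was called (limma adjusted p = 0.0257). Without the 4 arrays least like the others, this difference was called (limma adjusted p = 0.0488). At 54 µg NRCWE-001 on day 28 the difference was -0.34 and did not pass the test. Gata3 is also made outside lymphocytes, and its part from each cell type was not tested.

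Gpr171, a receptor of T cells that binds a neuropeptide, was the gene that rose. It read -1.14, -0.88, -0.70 and -1.19 in vehicle mice on day 28 and 0.15, -0.35, -0.57, 0.63 and 0.85 at 162 µg NRCWE-001. All 5 exposed mice were above every vehicle mouse, and they spread more widely among themselves than the vehicle mice did. The means were 0.14 ± 0.61 (SD, n = 5) and -0.98 ± 0.23 (SD, n = 4), which is 2.17-fold higher (log2 difference 1.12, SE 0.23, limma adjusted p = 0.0357). The 1 slide that held both groups gave 1.03. With slide as a block the difference was 0.99 but the limma adjusted p was 1.00, and the call was lost in 6 of the 9 fits without 1 array (limma adjusted p between 0.00157 and 0.410). Those were the fits without vehicle replicates 1, 2 or 4 and without replicates 1, 4 or 5 of 162 µg NRCWE-001.

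On day 1 Gpr171 read -1.32, -1.25, -1.02, -1.23 and -1.53 in vehicle mice and -0.42, -0.43, -0.45, -0.42 and -0.98 at 162 µg NRCWE-002. All 5 exposed mice were above vehicle, replicate 5 by little, and the difference of 0.73 did not pass the test (limma adjusted p = 0.123). It did pass without replicate 5 and in a fit of day 1 alone (limma adjusted p = 0.022). At 54 µg NRCWE-002 the difference was 0.47 (adjusted p = 0.702), and over the 12 contrasts the Gpr171 difference was above 0 in all 12, from 0.04 to 1.12. For the difference between the days in the effect of 162 µg NRCWE-001 the value was 0.82, which did not pass the test (limma adjusted p = 1.00).

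**Figure D3:**
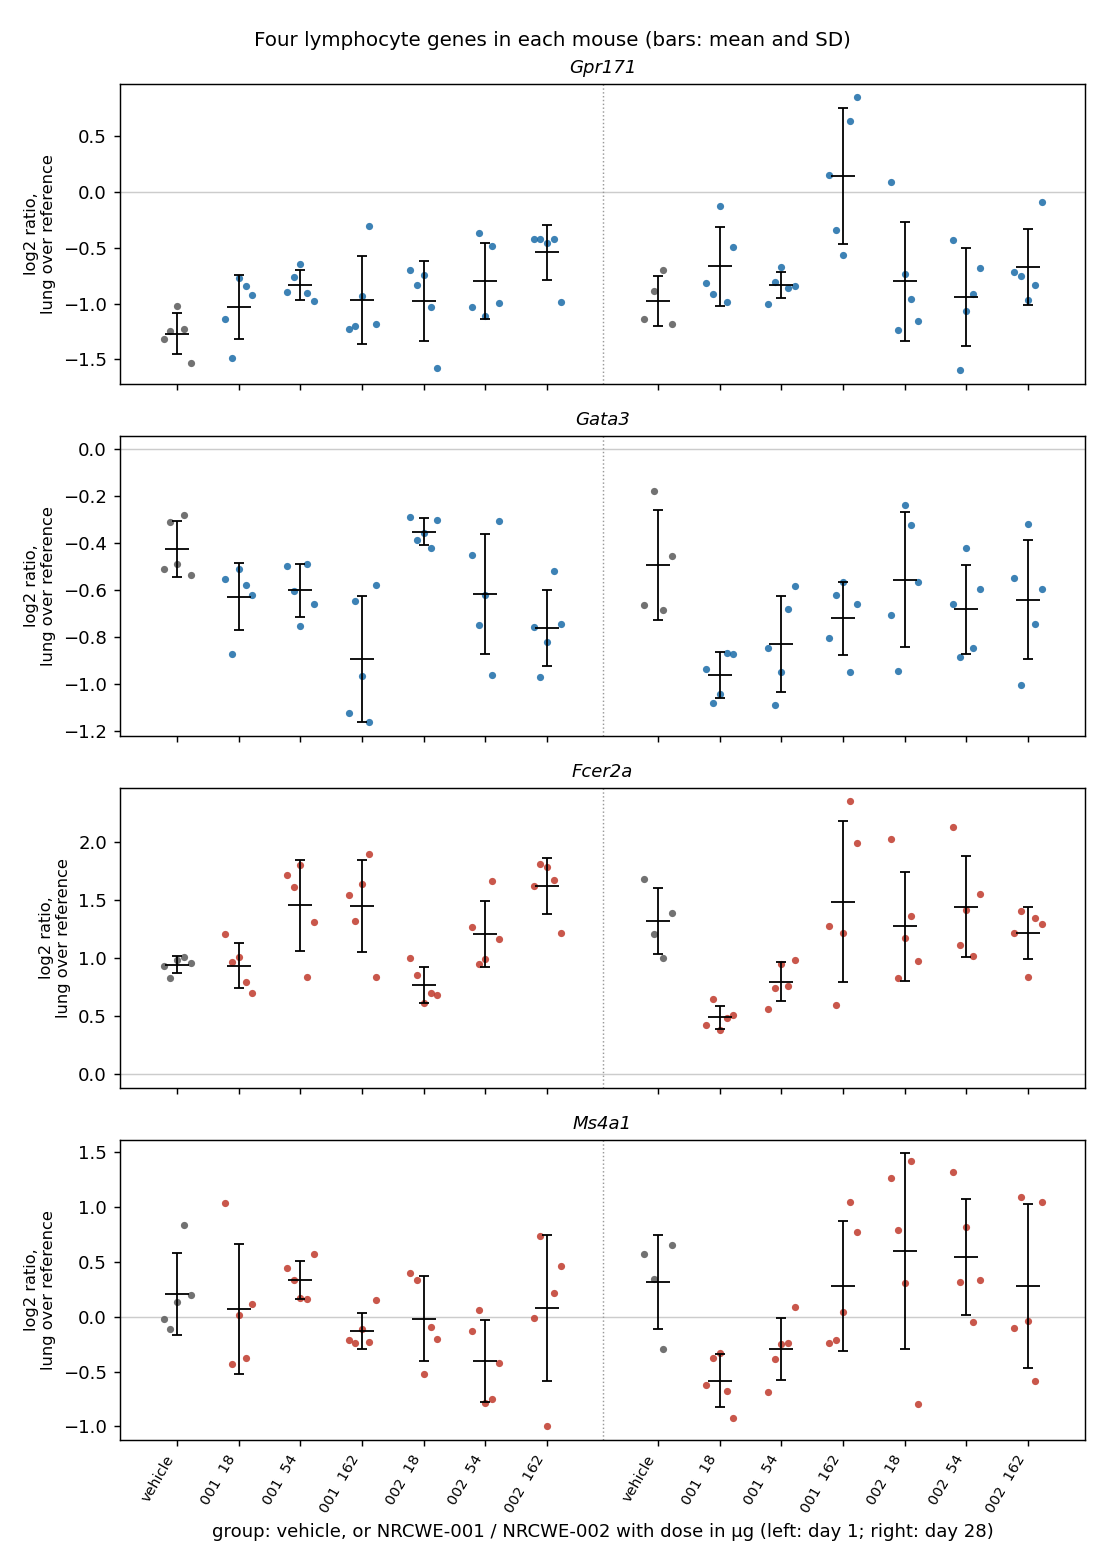
Log2 ratio over the reference RNA (y axis) of Gpr171, Gata3, Fcer2a and Ms4a1 in each mouse, by group (x axis), with day 1 on the left and day 28 on the right. Points are mice and bars are the group mean and SD. Gpr171 at 162 µg NRCWE-001 on day 28 spans -0.57 to 0.85, above the highest vehicle mouse at -0.70.

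Icos, a co-stimulatory receptor of activated and follicular helper T cells, had differences of 0.66 and 0.64 at 162 µg NRCWE-001 and NRCWE-002 on day 28, with 2 and 4 of 5 mice, respectively, above every vehicle mouse, and neither passed the test (limma adjusted p = 0.541 and 0.621). For NRCWE-002 the Icos value went to -0.0031 with the scanner software's own processed signals. Cd5 and Cd6, scavenger receptors that tune T cell receptor signals, had differences of 0.64 at 54 µg and 0.24 at 162 µg NRCWE-002 on day 28, with adjusted p of 0.946 and 0.685. Tbx21, the transcription factor T-bet of type 1 helper T cells and NK cells, had its lowest differences from vehicle on day 1. They were -0.73 at 18 µg and -0.58 at 162 µg NRCWE-001, and -0.70 at 18 µg and -0.67 at 54 µg NRCWE-002. Each of the 4 had an unadjusted p under 0.05, the smallest limma adjusted p was 0.613, and 3 or 4 of 5 mice were below vehicle. For Tbx21, 71.0% of the sum of squares within groups lay between slides. Its lowest values, 0.99, 1.02, 1.21 and 1.25, came from 1 slide that held no vehicle mouse. That slide held day 1 mice of the 18 and 54 µg groups of both particles. Cd8a, a chain of the CD8 co-receptor of killer T cells, had differences of -0.34, -0.31 and -0.31 at 18 and 54 µg NRCWE-001 and 18 µg NRCWE-002 on day 28, none past the adjusted threshold.

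No chain, co-receptor or kinase of the T cell receptor was called against vehicle by limma, and of these Cd8a and Cd247 alone had an unadjusted p under 0.05 in any of the 12 contrasts. Cd3d and Cd3g differed by -0.28 to 0.44 and -0.35 to 0.27 over the 12 contrasts, Cd247, the zeta chain, by -0.09 to 0.25, and the kinases Lck and Zap70 by -0.35 to 0.39 and -0.21 to 0.28. The Cd247 values are medians over 3 probes that did not move alike. At 18 µg NRCWE-001 on day 28 the brightest differed by -0.45 and the others by 0.07 and -0.04. For the co-receptor Cd4 the range was -0.18 to 0.06, and for Cd28 -0.20 to 0.12. Foxp3 was well above background on 2 of 5 arrays at 162 µg of either particle on day 28 and on none of the 4 vehicle arrays. Only a lower bound on the fold over vehicle could be set, 1.05 with NRCWE-001 and 1.01 with NRCWE-002. At 18 µg NRCWE-001 on day 28, with 1 such array, the bound was 0.89. The share of all probes well above background was 86.5% on replicate 2 of 162 µg NRCWE-001 and 87.1% on replicate 3 of 18 µg. It was 79.6% on replicate 5 of 162 µg NRCWE-002 and 64.6% to 68.7% on the vehicle arrays of day 28. Whether such brighter arrays set the Foxp3 detection was not tested. At 162 µg NRCWE-001 Foxp3 read 0.13, 0.17, 0.17, 0.78 and 0.68. Vehicle mice read 0.07, 0.19, 0.08 and 0.17, so the groups overlapped. In 7 of the 14 groups, vehicle of both days included, no array read Ctla4 well above background. As a median over the 17 T cell genes, the difference from vehicle lay between -0.08 and 0.21 over the 12 contrasts, against -0.01 to 0.02 over all genes.

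B cell genes were low together in 2 groups of day 28. At 18 µg NRCWE-001 on day 28, 9 of 9 were below vehicle and 8 of 9 had an unadjusted p under 0.05, against 3.72% of all genes lower at that threshold, but none passed the adjusted threshold in limma. Their median difference was -0.70, while the median over all genes was 0.00. At 54 µg the median was -0.43, with 9 of 9 below vehicle and 3 of 9 under an unadjusted p of 0.05, against 1.17% of all genes lower. At 162 µg the median was -0.04, so the 3 doses were not in order. The 4 vehicle mice of day 28 are common to all of these values, and a single low vehicle mouse, replicate 3, overlapped the exposed mice in several of the genes.

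Promoter sequence is shown for 4 B cell genes, Fcer2a, Cd22 and Tnfrsf13c, which were low together at 18 µg NRCWE-001 on day 28, and Cd79a, the 1 of the 9 without an unadjusted p under 0.05 there, so that the stretches next to their starts can be compared. Each is the 250 bases before the listed start, on the strand of the gene, from RefSeq on mouse build GRCm38.p6. Capitals mark an Ets core, GGAAGT, or an E box, CAGGTG, on either strand (ACTTCC and CACCTG on the reverse). Fcer2a lies at chr8:3694175-3694424 on the minus strand (1 of 3 starts listed), Cd22 at chr7:30879029-30879278 on the minus strand, Tnfrsf13c at chr15:82224381-82224630 on the minus strand and Cd79a at chr7:24897247-24897496 on the plus strand.
Fcer2a: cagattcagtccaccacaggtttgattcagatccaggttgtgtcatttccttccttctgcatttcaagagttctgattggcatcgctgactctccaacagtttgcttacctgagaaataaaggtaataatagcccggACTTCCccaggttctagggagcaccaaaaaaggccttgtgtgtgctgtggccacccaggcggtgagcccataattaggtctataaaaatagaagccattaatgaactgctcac
Cd22: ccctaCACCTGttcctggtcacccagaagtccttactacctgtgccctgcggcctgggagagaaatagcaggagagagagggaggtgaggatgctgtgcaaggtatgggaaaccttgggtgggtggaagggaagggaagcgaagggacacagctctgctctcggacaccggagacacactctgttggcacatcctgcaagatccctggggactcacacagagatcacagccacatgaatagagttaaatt
Tnfrsf13c: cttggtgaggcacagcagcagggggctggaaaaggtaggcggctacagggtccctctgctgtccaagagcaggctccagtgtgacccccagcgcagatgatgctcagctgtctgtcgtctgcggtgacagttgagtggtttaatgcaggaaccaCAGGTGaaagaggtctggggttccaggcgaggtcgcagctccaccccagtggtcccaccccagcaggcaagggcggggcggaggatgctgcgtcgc
Cd79a: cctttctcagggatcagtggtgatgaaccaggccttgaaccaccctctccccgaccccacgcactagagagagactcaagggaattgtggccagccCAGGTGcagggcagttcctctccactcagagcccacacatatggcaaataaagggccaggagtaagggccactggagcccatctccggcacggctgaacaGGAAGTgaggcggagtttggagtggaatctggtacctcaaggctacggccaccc

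In these windows the Fcer2a start shown held 1 Ets core and no E box, Cd22 and Tnfrsf13c held 1 E box each, and Cd79a held 1 of each. Of the 26 lymphocyte genes with a promoter in the RefSeq table, 12 held GGAAGT in at least 1 listed start. Counted by promoter, 13 of the 33 of these genes held it, against 19.7% of all 32851 promoters. CAGGTG was in 15 of the 26 genes and in 16 of the 33 promoters, against 17.2% of all promoters. Several of the 26 genes have more than 1 start listed, which gives them more windows to match, and a match of letters is no evidence of a bound factor. Promoters were not listed for 9 of the measured genes, among them Cd79b, Ms4a1 and Gpr171.

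Fcer2a, the low-affinity IgE receptor CD23 of mature B cells, had the smallest unadjusted p of the 9 in that group. On day 28 it read 1.68, 1.21, 1.01 and 1.39 in vehicle mice and 0.42, 0.65, 0.38, 0.49 and 0.51 at 18 µg NRCWE-001. All 5 exposed mice were below every vehicle mouse, with means of 0.49 ± 0.10 and 1.32 ± 0.29 and a difference of -0.83 (SE 0.22, limma adjusted p = 0.114). With slide as a random block the difference was -0.69 and the limma adjusted p was 0.0418, and within the 2 shared slides it was -0.78 and -0.36. At 54 µg it read 0.57, 0.74, 0.95, 0.76 and 0.98, again with all 5 below vehicle (difference -0.52, adjusted p = 1.00). At 162 µg it read 1.28, 0.60, 1.22, 2.35 and 1.99 and spread over the whole vehicle range and beyond.

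On day 1 the mice given 54 or 162 µg NRCWE-001 or 162 µg NRCWE-002 were mostly the higher ones. Vehicle mice read 0.94, 0.83, 0.99, 1.01 and 0.96, a narrow band. At 54 µg NRCWE-001 Fcer2a read 1.71, 1.61, 1.80, 0.84 and 1.31, and at 162 µg it read 1.55, 1.32, 1.64, 1.90 and 0.84. The 18 µg groups were not higher, with means of 0.94 ± 0.20 for NRCWE-001 and 0.77 ± 0.16 for NRCWE-002 (SD, n = 5 each). At 54 and 162 µg NRCWE-001, 4 of 5 mice were above every vehicle mouse, with differences of 0.51 and 0.50 (limma adjusted p = 0.863 and 0.465). At 162 µg NRCWE-002 it read 1.63, 1.81, 1.78, 1.67 and 1.22, all above vehicle, with a difference of 0.68 (limma adjusted p = 0.138). Blocks for slide changed these calls: the 54 µg NRCWE-001 difference was 0.67 with slide as a fixed block (limma adjusted p = 0.0479), and with slide as a random block all 3 differences were called (limma adjusted p = 0.0497, 0.0476 and 0.0303).

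Over the 3 doses together, the moderated F-test of limma for NRCWE-001 on day 28 called 2 of the 35 genes, Gpr171 (F = 9.95, adjusted p = 0.00928) and Fcer2a (F = 9.53, adjusted p = 0.0117), where 0.686% of all genes were called. Each call was lost when replicate 4 or replicate 5 of 162 µg NRCWE-001 was left out, and in a fit of day 28 alone (adjusted p = 0.173 and 0.205). The F-tests of NRCWE-001 on day 1 (0.879% of all genes called), NRCWE-002 on day 1 (0.771%) and NRCWE-002 on day 28 (0%) called none of the 35. Fcer2a on day 1 of NRCWE-002 came nearest, with F = 6.30 and a limma adjusted p of 0.0763.

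Ms4a1, which encodes the B cell surface protein CD20, read 0.57, 0.34, -0.30 and 0.65 in vehicle mice on day 28 and -0.62, -0.37, -0.33, -0.68 and -0.92 at 18 µg NRCWE-001. All 5 exposed mice were below the lowest vehicle mouse, 2 of them narrowly. The difference was -0.90 (SE 0.33, adjusted p = 0.452). Cd22, an inhibitory co-receptor that binds sialic acid, read 1.66, 1.52, 1.13 and 1.36 in vehicle mice and 1.06, 0.88, 0.45, 0.69 and 0.50 in exposed mice, again with no overlap (difference -0.70, limma adjusted p = 0.169). The 2 probes of Cd22 differed by -1.14 and -0.26, and the second was well above background on only 19 arrays. At 54 µg Cd22 read 0.85, 0.97, 1.07, 0.96 and 1.06, all below vehicle (difference -0.43, adjusted p = 1.00).

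Cd79b, the partner of Cd79a in the B cell receptor, read 1.18, 1.12, -0.09 and 0.94 in vehicle mice on day 28 and 0.14, -0.12, 0.13, -0.15 and -0.21 at 18 µg NRCWE-001. Vehicle replicate 3 lay among the exposed mice, and the difference was -0.83 (adjusted p = 0.348). Tnfrsf13c, the receptor for the B cell survival factor BAFF, differed by -0.80, Cr2, a complement receptor, by -0.41, Blk, a B cell kinase, by -0.35 and Pax5 by -0.18. The 2 probes of Cr2 differed by -0.72 and -0.09. For Cd79a the difference was -0.20. Blk was well above background on 1 of 5 arrays of this group and Pax5 on 1 of 5, so both values sit near the limit of the signal. Within the 2 slides shared with vehicle, the mean of the 9 genes differed by -0.52 in one and by -0.05 in the other, so the size differed between slides.

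On day 1, 54 µg NRCWE-002 gave a similar picture in fewer genes: 8 of 9 B cell genes were below vehicle and 3 of 9 had an unadjusted p under 0.05, against 3.31% of all genes lower. These were Tnfrsf13c (difference -0.77, 5 of 5 mice below vehicle), Cd79b (-0.61, 4 of 5) and Cd22 (-0.43, 3 of 5), with limma adjusted p of 0.675, 0.658 and 0.675. Ms4a1 read -0.13, 0.06, -0.78, -0.75 and -0.42 there and -0.02, -0.11, 0.13, 0.83 and 0.20 in vehicle mice, with overlap. In the same group the list of B cell receptor signalling genes outside the members had 5 of 20 genes lower at an unadjusted p under 0.05 and a median of -0.26. At 18 µg NRCWE-001 on day 28 it also had 5 of 20 lower, with a median of -0.27, and none of these passed the adjusted threshold.

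NK and cytotoxic genes were mostly a little below vehicle. Their median difference was below 0 in 11 of the 12 contrasts, from -0.27 to -0.11, and was 0.08 at 54 µg NRCWE-002 on day 28. The mean of the 9 genes turned from -0.16 to 0.092 with slide as a fixed block and to 0.097 with scan day at 18 µg NRCWE-001 on day 28, from -0.19 to 0.020 and 0.041 at 162 µg NRCWE-001 on day 28, and from -0.087 to 0.0098 and 0.011 at 162 µg NRCWE-002 on day 1. None of the 9 passed an adjusted p of 0.05 in any comparison in limma, and from 0 to 2 had an unadjusted p under 0.05 in a contrast. The 6 contrasts of a day share their vehicle mice, and the 9 genes had a median difference of 0.20 in vehicle mice of day 28 against day 1, with 9 of 9 higher and only Gzmb, a granzyme of killer cells, under an unadjusted p of 0.05 (0.48, limma adjusted p = 0.918).

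Klrb1c, the NK receptor NK1.1 of this strain, differed by -0.33 at 54 µg NRCWE-002 on day 1 with 5 of 5 mice below vehicle (limma adjusted p = 0.619). Gzma, another granzyme, differed by -0.55 at 162 µg NRCWE-001 on day 1 (adjusted p = 0.673). Eomes, a transcription factor of NK cells, read 1.00, 0.89, 0.96 and 0.75 in vehicle mice on day 28 and 0.71, 0.36, 0.74, 0.66 and 0.69 at 162 µg NRCWE-001. All 5 mice were below vehicle, but the difference was only -0.27 (limma adjusted p = 0.594). Prf1, which encodes perforin, differed by -0.49 to 0.26 and Nkg7, a protein of cytotoxic granules, by -0.38 to 0.17 over the 12 contrasts. Klrg1, a receptor of mature NK and effector T cells, ranged from -0.28 to 0.25. No array of 2 groups read Klrk1 well above background, and its difference stayed between -0.09 and 0.15.

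The particles, charged and uncharged, were next compared at matched doses. On day 1, averaged over the 3 doses, none of the 35 genes was called (limma, 0.108% of all genes called). Only Cd22 had an unadjusted p under 0.05 (difference -0.30, NRCWE-002 minus NRCWE-001, adjusted p = 0.360), against 8.87% of all genes. On day 28, 6 of 35 were called, against 6.73% of all genes: Cd79b, Ms4a1, Cd22 and Fcer2a were higher after NRCWE-002 (4 of 35, against 2.06% of all genes called higher), and Cd4 and Cd28 were lower (2 of 35, against 4.67% called lower). Before adjustment 18 of 35 had p under 0.05, against 23.3% of all genes, with 15 higher (8.89% of all genes) and 3 lower (14.4%).

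The 4 B cell genes called higher after NRCWE-002 each had a mean below vehicle at 18 and 54 µg NRCWE-001. Ms4a1 read -0.68, -0.39, -0.25, -0.24 and 0.09 at 54 µg NRCWE-001 and -0.24, -0.21, 0.04, 1.04 and 0.77 at 162 µg. With NRCWE-002 it read 1.27, 0.79, 0.31, 1.42 and -0.79 at 18 µg, 1.32, 0.32, 0.82, -0.05 and 0.34 at 54 µg and -0.10, 1.09, -0.04, -0.59 and 1.05 at 162 µg. The means over 15 mice each were 0.48 ± 0.70 and -0.20 ± 0.53, and the ranges of the particles overlapped. The difference was 0.68 (SE 0.18, limma adjusted p = 0.0176).

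Cd79b had means of 0.79 ± 0.57 after NRCWE-002 and 0.25 ± 0.42 after NRCWE-001 (n = 15 each, difference 0.54, limma adjusted p = 0.0219). It read 1.54, 1.18, 0.38, 1.18 and -0.14 at 18 µg NRCWE-002, where 4 of 5 mice were above all 5 mice of 18 µg NRCWE-001. Cd22 differed by 0.36 (limma adjusted p = 0.0329) and read 2.03, 1.21, 1.14, 1.63 and 0.70 at 18 µg and 2.04, 1.47, 1.16, 1.18 and 1.39 at 54 µg NRCWE-002. Fcer2a differed by 0.39 (limma adjusted p = 0.0395) and read 2.03, 0.83, 1.17, 1.37 and 0.98 at 18 µg and 2.13, 1.11, 1.42, 1.02 and 1.55 at 54 µg NRCWE-002. At both doses the mice given NRCWE-002 stood mostly above those given NRCWE-001, and at 162 µg the particles overlapped.

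Cd4, the co-receptor of helper T cells, had means of -0.08 ± 0.15 after NRCWE-002 and 0.09 ± 0.14 after NRCWE-001 on day 28 (difference -0.17, limma adjusted p = 0.0264). Replicate 2 of the 18, 54 and 162 µg groups of NRCWE-002, all on 1 slide, read -0.40, -0.29 and -0.29, and replicate 1 of the same doses of NRCWE-001, all on another slide with a vehicle mouse at 0.32, read 0.27, 0.26 and 0.39. The remaining mice of both particles lay between -0.15 and 0.18. Cd28 differed by -0.21 (limma adjusted p = 0.0253), but it was well above background on only 29 of the 69 arrays. On the same pair of slides it read -1.002, -1.239 and -0.840 after NRCWE-002, among the 5 lowest of day 28, and -0.37, -0.32 and -0.24 after NRCWE-001, the 3 highest of that particle. The Cd4 call was lost without any 1 of these 6 arrays, and the Cd28 call without any 1 of them other than replicate 1 of 18 µg NRCWE-001. Within the 2 slides that held both particles on day 28, the differences were of the opposite sign, 0.04 and 0.06 for Cd4 and 0.05 and 0.10 for Cd28.

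None of the 6 day 28 calls held with slide as a block, fixed or random, with scan day as a block, or in a fit of day 28 alone, and 9 of all 17628 genes were called with the fixed slide block. With that block Cd4 and Cd28 went to 0.0088 and 0.034, while Ms4a1, Cd79b, Fcer2a and Cd22 stayed above 0 at 0.56, 0.44, 0.24 and 0.18. The 2 slides with both particles gave 0.04 and 0.79 for Ms4a1, 0.12 and 0.63 for Cd79b, 0.28 and 0.44 for Fcer2a and 0.06 and 0.14 for Cd22. Without the 4 arrays least like the others, 5 of the 6 calls were lost: the differences were 0.61 for Ms4a1 (limma adjusted p = 0.0602), 0.41 for Cd79b (0.113), 0.34 for Cd22 (0.0877), -0.11 for Cd4 (0.175) and -0.14 for Cd28 (0.163). Fcer2a was still called there (0.44, limma adjusted p = 0.0490), as was 1 gene outside the 6. Leaving out 1 array at a time gave from 2 to 10 called genes: the Ms4a1 call held in all 30 such fits, the Cd79b call was lost only without replicate 2 of 162 µg NRCWE-002, and the Cd22 and Fcer2a calls were lost in 9 and 11 fits.

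The last comparison of the design was between the days. No lymphocyte gene was called between vehicle mice of day 28 and day 1 (limma, 0% of all genes called), where only Gzmb had an unadjusted p under 0.05 (1 of 35, against 5.04% of all genes). The change of the effect from day 1 to day 28 called none of the 35 at 162 µg NRCWE-001 (0% of all genes), 162 µg NRCWE-002 (0%), 54 µg NRCWE-001 (0%), 54 µg NRCWE-002 (0%), 18 µg NRCWE-001 (0.0113%) or 18 µg NRCWE-002 (0%). With an unadjusted p under 0.05 there were 1, 2, 5, 7, 4 and 0 genes, respectively, against 3.85%, 6.7%, 4.64%, 5.01%, 4.51% and 4.36% of all genes. The smallest p was that of Fcer2a at 54 µg NRCWE-001, whose difference from vehicle was 0.51 on day 1 and -0.52 on day 28, a change of -1.03 (unadjusted p = 0.00122, limma adjusted p = 0.487). With slide as a random block this change was called. Tbx21 changed by 1.12 and Tnfrsf13c by 1.03 at 54 µg NRCWE-002 (adjusted p = 0.961 each), both low on day 1 and not on day 28.

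The B cell genes varied together from mouse to mouse, as did the NK genes, and the T cell genes less so. Over all 69 animals, with group means taken off, the median Pearson correlation was 0.58 between pairs of B cell genes (36 pairs), 0.58 between pairs of NK genes (36 pairs) and 0.17 between pairs of T cell genes (136 pairs). Between lineages it was 0.31 for T with B, 0.09 for T with NK and 0.32 for B with NK, and the mean over all pairs of genes tested was 0.0021. These points share arrays and slides, so the correlations describe the arrays as well as the mice. After slide means were also removed, the medians were 0.53, 0.46 and 0.32 within B, NK and T.

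**Figure D4:**
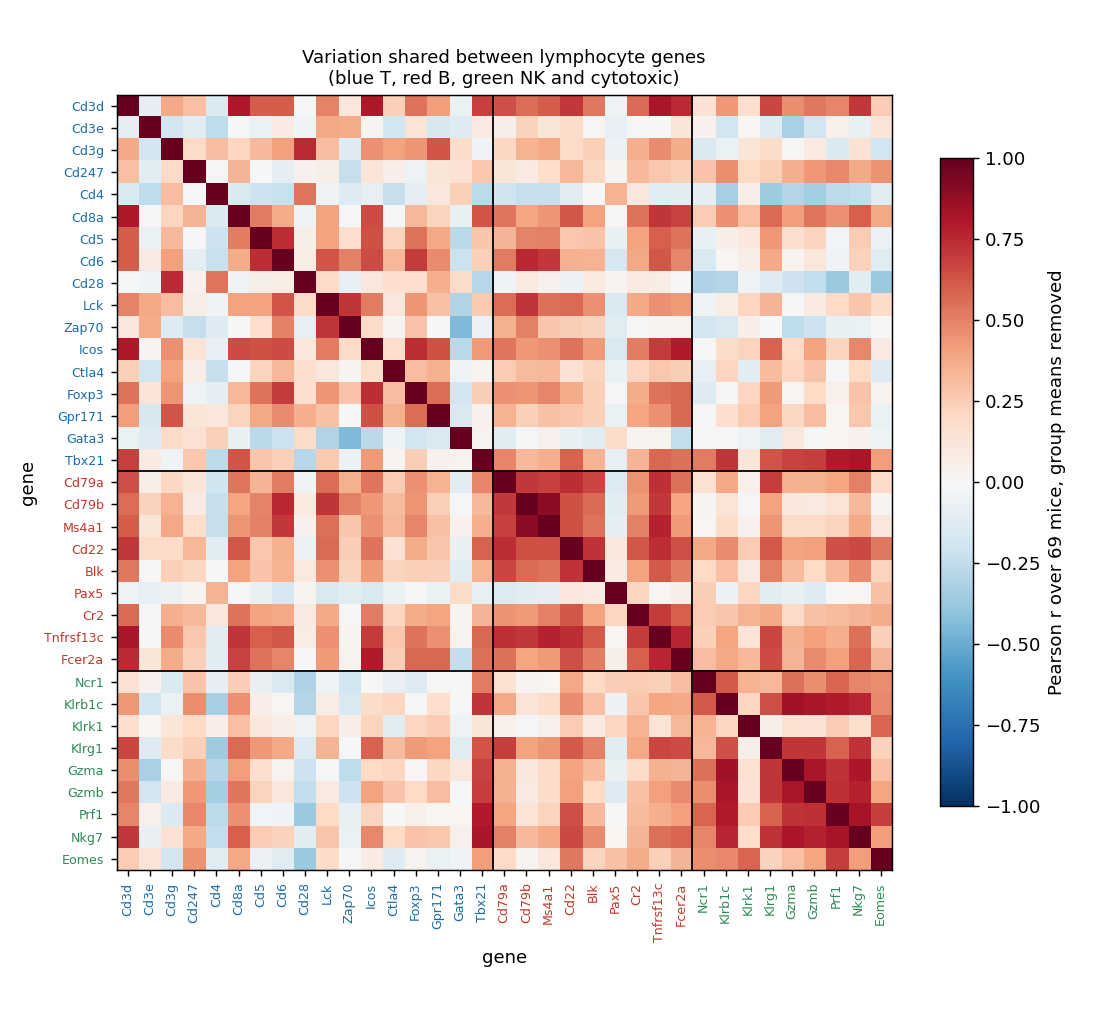
Pearson correlation between each pair of the 35 genes over 69 mice, with group means removed, on a scale from -1 to 1, with genes of T cells, B cells and NK cells in turn on both axes. The B and NK blocks are mostly red, with a median of 0.58 each, while the T block is mixed, with a median of 0.17 and a lowest value of -0.44.

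The highest pairs were Cd79b with Ms4a1 (r = 0.90), Klrb1c with Gzma (0.84) and Prf1 with Nkg7 (0.82). Cd3d with Tnfrsf13c and Tbx21 with Nkg7, which cross the lists, were at 0.82 each. The lowest was Zap70 with Gata3, at -0.44. Tbx21 followed the mean of the NK genes (0.81) more than that of the other T cell genes (0.36), and Fcer2a followed the T cell mean (0.77) as well as that of the other B cell genes (0.66). Pax5 followed neither (0.00 with the other B cell genes), nor did Gata3 (-0.19), Cd3e (0.02) and Cd4 (-0.09) follow the other T cell genes.

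Cd3e, the gene used to stand for T cells above, thus did not vary with the other T cell genes in these lungs. Cd4, Cd28 and Cd3e had 85.9%, 84.8% and 75.9% of their sum of squares within groups between slides, among the highest of the 35, and SDs within groups of 0.13, 0.17 and 0.15. For Cd3d the SD was 0.37, its correlation with the other T cell genes was 0.82 and 60.7% lay between slides. On the chromosome the starts of Cd3g and Cd3d are 1355 bases apart and those of Cd3d and Cd3e 27825 bases apart, and the correlations of these neighbours were 0.38 and -0.10.

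**Figure D5:**
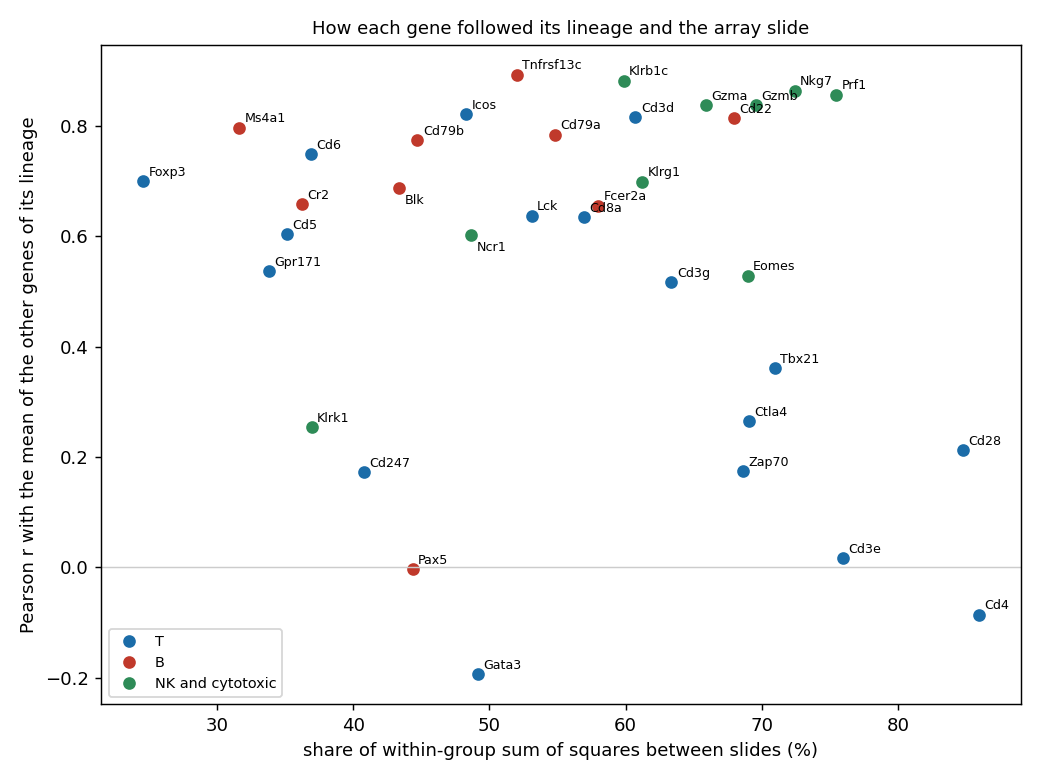
For each of the 35 genes, the share of its sum of squares within groups that lay between slides (x axis, %) against its Pearson correlation over 69 mice with the mean of the other genes of its lineage (y axis). Cd4 and Cd28 lie at 85.9% and 84.8% with correlations of -0.09 and 0.21, while Tnfrsf13c lies at 52.0% with 0.89.

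Between lineage-defining genes 3 relations were tested, with 100000 permutations within groups. Cd3e with Cd79a had r = 0.06 and rho = 0.02 (permutation p = 0.732 and 0.907), Cd3e with Ncr1 had r = 0.04 and rho = 0.08 (permutation p = 0.766 and 0.574) and Cd79a with Ncr1 had r = 0.16 and rho = 0.17 (permutation p = 0.271 and 0.202), over 69 animals. The permutation p of r, adjusted over the 3 relations, was 0.766 for each. Without the 2 animals farthest from the median of the first gene, r was 0.007, 0.077 and 0.090. After slide means were taken off as well, r was -0.14, -0.14 and -0.23 (permutation p = 0.214, 0.281 and 0.092). Cd3e did not follow the other T cell genes (0.02), so its relations cannot show whether T cell genes varied with the other lineages. Cd3d, which did follow them (0.82), had r = 0.79 with the mean of the B cell genes and 0.58 with that of the NK genes. No p was computed for these.

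The 5 genes outside the list that followed the T cell mean most closely over the 69 mice were Cxcr3 (r = 0.91), a chemokine receptor of effector T cells, Ly86 (0.86), Cd52 (0.85), Ccr6 (0.84) and Ms4a6b (0.84). For the B cell mean they included Spib (0.91), a B cell transcription factor, Fcrla (0.90), Fcmr (0.87), the receptor for IgM, and Bank1 (0.85). For the NK mean they were Klra8 (0.90), Klra9 (0.87) and Klra10 (0.78), receptors of the Ly49 family whose near-identical copies can share a probe, Klrd1 (0.85) and Ctsw (0.79), a protease of killer cells. Ccr6, Spib, Fcrla and Bank1 were among the genes that were called between particles on day 28.

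The genes of the wider pathways were compared in the same way. No gene of B cell receptor signalling (20), NK and cytotoxic partners (19) or homing and survival (20) was called in any limma dose contrast. At most 5, 6 and 4 of them, respectively, had an unadjusted p under 0.05 and were lower in 1 contrast. For B cell receptor genes the count was 5 at 54 µg NRCWE-002 on day 1, where 3.31% of all genes were lower. It was also 5 at 18 µg NRCWE-001 on day 28, where 3.72% of all genes were lower. The counts of 6 and 4 are the largest over all dose contrasts and were not set against all genes, so nothing is concluded from them. Between particles on day 28, 5 of 20 B cell receptor genes were called, all higher with NRCWE-002, of which Pou2af1 (0.56), Fcrla (0.54) and Blnk (0.48) moved most. Of the homing and survival genes 4 of 20 were called higher, led by Ltb, which encodes lymphotoxin beta (0.74), Ccr6 (0.55) and Cxcr6 (0.43). With slide as a fixed block 0 of these 5 and 0 of these 4 genes were called in limma, while all 9 differences were still above 0.

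Genes of other cells moved in the same groups. At 162 µg NRCWE-001 on day 1, where Gata3 fell, 7 of 10 neutrophil genes had an unadjusted p under 0.05 and were higher, with a median of 0.68. Of all genes, 7.32% had such a p there in either direction. The neutrophil genes Csf3r (0.81) and Cxcr2 (0.82) were called. Siglecf and Fabp1, markers of alveolar macrophages, fell there by 1.00 and 1.86 and at 54 µg NRCWE-002 by 1.27 and 1.95. Of the 8 macrophage genes with a probe, they were the only 2 called in each of these groups. Siglecf was also called at 162 µg NRCWE-002 (-1.005, limma adjusted p = 0.0335). That call was lost with slide as a fixed block (-0.86, limma adjusted p = 0.0884). The part of these other cells in the lymphocyte values was not tested. At 162 µg NRCWE-002 on day 1 the neutrophil median was 0.47, with 6 of 10 under an unadjusted p of 0.05, against 9.36% of all genes in either direction. Ccl17, a chemokine of dendritic cells that draws T cells, rose there by 1.80. It was the only 1 called of the 8 dendritic cell genes with a probe.

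Genes of cardiac muscle and of lymphoid tissue also varied. The 8 cardiac muscle genes had medians of 1.06, 0.67 and 0.15 at 18, 54 and 162 µg NRCWE-001 on day 28 and of 1.54, 0.48 and 1.78 for NRCWE-002, and the 8 genes of lymph node and lymphoid stroma had medians between -0.06 and 0.26 over the 12 contrasts. Over the 69 mice, with group means removed, the lymph node list correlated at 0.56 with the T and at 0.56 with the B cell mean, and at 0.22 with the NK mean. The endothelial list correlated at 0.60 with the NK mean and at 0.06 with the T cell mean. Slide means were not removed from these list correlations. Of the sum of squares within groups, 74.9% lay between slides for the endothelial mean and 70.0% for the NK mean. Of 8 thymus genes with a probe, 6 were well above background on 10 or fewer arrays, Rag1 on 2 and Rag2 on 1, while Dntt and Cd1d1 were so on all 69. Plasma cell genes Jchain (0.74) and Mzb1 (0.50) were called higher and the thymus gene Dntt (-0.29) and the vessel addressin Madcam1 (-0.26) lower between particles on day 28, and none of these 4 was called with slide as a fixed block, where Dntt turned to 0.0013. Whether these transcripts came from the lung itself or from tissue taken along with it was not tested. Their part in the lymphocyte values was not tested either.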

How the data were processed

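RNA from lungs of 69 mice was hybridised by the authors to 2-colour Agilent arrays, each mouse in Cy5 against reference RNA in Cy3. The authors deposited 1 table of log2 ratios, which was used here as the main measure. The study's methods name LOWESS normalisation and averaging of replicate probes for these arrays; whether the deposited table came from that step is not stated. Set against each array's scanner values, the table's direction was sample over reference, with a correlation of 0.988 to 0.995 with ratios made by normexp (offset 50) and loess. The deposited scanner files (Agilent Feature Extraction 11.0.1.1) hold intensity columns and a log10 ratio, which served for detection flags and the alternatives. Median sample intensity was 104 to 212 per array over a background of 62 to 81, and no spot was saturated; the number of arrays limits the precision.

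Of 41174 probes in the table, 27479 (66.7%) matched a gene through their accession, and 25826 were kept that were well above background on at least 4 arrays. A gene's value was the median of its probes, giving 17628 genes. A linear model over 14 groups (n = 5, vehicle day 28 n = 4) was fitted to all genes with limma 3.58.1 in R 4.3.3 (lmFit, eBayes), with 21 contrasts and 4 moderated F-tests over doses, each adjusted by Benjamini-Hochberg over all genes; a call is an adjusted p under 0.05. Slide and scan day were fitted as blocks (consensus correlation within slides 0.4805). The scripts were tested on simulated data. Correlations used Python 3.11.15, NumPy 2.4.6 and SciPy 1.17.1, with group means removed and two-sided permutation within groups.

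The members and lists were chosen with earlier results of these data known. All 36 members are named. Values per mouse are given for Cd3e, Cd79a and Ncr1, for members called in any contrast or F-test and for the 2 members of each lineage with the smallest p over the F-tests. Of each pathway list up to 3 called genes per contrast are named by size of change, and for each lineage mean the 5 other genes with the highest correlation; marker genes were named where called. Alternatives were other normalisations, dim-probe filters, blocks, 1-day fits and leaving out each array; leaving out 4 arrays was chosen after seeing the data. Some results that the rule would name are not reported here.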

Additional observations from a re-analysis of the deposited data

Results flagged for a closer look

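Across 15 gene values and lineage means in 14 groups, 14 of the 210 groups examined held a mouse far from the others, judged by its gap to the nearest mouse over the range of the group; chance gives about 1 in 20 groups. Among the lineage means (centred log2 ratios), the T cell mean was low in replicate 2 of 162 µg NRCWE-001 on day 1 (-0.2117, nearest -0.1009). The B cell mean was low in replicate 4 of 54 µg NRCWE-001 on day 1 (-0.1168, nearest 0.1712) and high in vehicle replicate 4 of day 1 (0.2961, nearest 0.01934).

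Among single genes on day 1 (log2 ratios), Cd79a was low in replicate 1 of 162 µg NRCWE-001 (0.1904), Gpr171 in replicate 5 of 162 µg NRCWE-002 (-0.9836) and Cd22 in replicate 4 of 54 µg NRCWE-001 (0.73). On day 28, Gpr171 was high in replicate 5 of 162 µg NRCWE-002 (-0.0892) and Eomes low in replicate 2 of 162 µg NRCWE-001 (0.3568). The other 6 lay on 2 slides. On the slide with replicate 2 of the NRCWE-002 groups of day 28, Cd3e was high at 162 µg (-0.1468) and 18 µg (-0.1462), Cd4 was low at 162 µg (-0.2895) and Cd28 was low at 54 µg (-1.239). Vehicle replicate 2 of day 28, on a slide with replicate 1 of the NRCWE-001 groups, was high in Cd4 (0.3153) and Cd28 (-0.2004).

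Between particles on day 28, 6 genes differed by limma: Cd4 by -0.1706, Cd28 by -0.2116, Cd79b by 0.5431, Ms4a1 by 0.6756, Cd22 by 0.3634 and Fcer2a by 0.3875 (NRCWE-002 minus NRCWE-001, log2), with adjusted p of 0.0264, 0.0253, 0.0219, 0.0176, 0.0329 and 0.0395. With a fixed slide block all 6 calls were lost.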

How the results depend on the processing

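Counts of called members moved with the processing as follows, and the causes were not tested. At 162 µg NRCWE-001 on day 1 (1 called), the count was 0 with normexp and loess, with the scanner software's processed signals, with median centring and without the dim-probe filter, and 2 with slide as a random block. At 162 µg NRCWE-001 on day 28 (1 called), it was 0 with processed signals, with slide as a fixed or random block, with scan day as a block and in the 1-day fit. Between particles on day 28 (6 called), it was 3 with processed signals, 10 with median centring, 0 with the slide and scan day blocks and the 1-day fit, and 2 without 4 arrays. The F-test of NRCWE-001 on day 28 (2 called) gave 1 with processed signals and 0 in the 1-day fit. Where none was called, 54 µg NRCWE-001 on day 1 gave 1 with slide as a fixed or random block, 162 µg NRCWE-002 on day 1 gave 1 with the random slide or scan day block and 2 in the 1-day fit, 18 µg NRCWE-001 on day 28 gave 2 with the random block and 1 without 4 arrays, and the day change at 54 µg NRCWE-001 gave 1 with the random block. The day 1 F-test gave, for NRCWE-001, 1 with the fixed slide block, 2 with the random one, 1 with scan day and 1 without 4 arrays, and for NRCWE-002, 2 with the random block and 1 with scan day, in the 1-day fit and without 4 arrays.

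With processed signals the T cell mean differed from vehicle by 0.33 at 162 µg NRCWE-001 on day 28, and its day change at that dose was 0.46. The B cell mean differed by -0.57 (18 µg NRCWE-002, day 1), -1.07 (18 µg NRCWE-001, day 28) and -0.50 (162 µg NRCWE-002, day 28), with a day change of -0.53 at 162 µg NRCWE-002. The NK mean differed on day 1 by -0.61 and -0.40 (18 and 54 µg NRCWE-001) and by -0.80 and -0.74 (18 and 54 µg NRCWE-002), and on day 28 by -0.39 and -0.51 (18 and 162 µg NRCWE-001) and -0.39 (162 µg NRCWE-002). With the fixed slide block the NK mean differed by 0.092 at 18 µg NRCWE-001 on day 28 and by -0.19 between particles on day 28, with day changes of 0.29 and -0.31 at 162 µg NRCWE-001 and NRCWE-002. With scan day the NK mean differed by 0.097 and 0.041 at 18 and 162 µg NRCWE-001 on day 28 and by -0.17 between particles on day 28, with a day change of 0.30 at 162 µg NRCWE-001.

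With the slide and scan day blocks the NK means at 18 and 162 µg NRCWE-001 on day 28 and between particles on day 28 thus changed sign. Over the 420 differences from vehicle of the members (35 genes, 12 contrasts), 85 changed sign with the fixed slide block, 71 with scan day, 64 with processed signals and 71 with median centring. Among the gene differences followed one by one, signs turned for Icos at 162 µg NRCWE-002 on day 28 (-0.0031 with processed signals) and, between particles on day 28, for Cd4 (0.043 with median centring, 0.0088 with the slide block, 0.015 with scan day) and Cd28 (0.034 with the slide block, 0.054 with scan day). In all, 258 gene values, 489 lineage means and 233 counts kept their direction and call, or stayed within the spread, under the alternatives. Of the other gene values 44 became weaker, 10 stronger and 6 reversed, and 21 lineage means and 35 counts moved. With 1 array left out, the count ranged from 0 to 1 at 162 µg of either particle on day 1, at 162 µg NRCWE-001 on day 28 and in both day 1 F-tests, from 2 to 10 between particles on day 28, and from 0 to 3 in the F-test of NRCWE-001 on day 28. Between particles on day 28, 30.6% of all called genes were higher after NRCWE-002, against 45.4% with normexp and loess and 8.21% with median centring. At 162 µg on day 1 the share higher was 72.7% (NRCWE-001) and 74.0% (NRCWE-002), against 83.3% and 87.3% with processed signals and 89.2% and 90% with median centring. Median centring moved the median of all genes by -0.13 for the day change at 162 µg NRCWE-002. Foxp3, Ctla4, Pax5, Klrk1, Cd28 and Blk were near background, where signal limits what can be seen. No paired analysis was possible by replicate number because the labels do not tie the numbers across groups; slides, which hold arrays of several groups, were fitted as blocks instead.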
